A study of Mus musculus with 3 samples.

Results

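This account concerns 8 genes of retinal ganglion cells and their axons, Nefl, Nefm, Nefh, Thy1, Sncg, Gap43, Stmn2 and Uchl1, in the neural retina of the mouse at postnatal day 7. Every probe set of the array whose platform annotation named exactly 1 of these genes was taken, which gave 11 probe sets of the 12422 that were not controls. The rule that picked the probe sets used gene names alone, but the genes were proposed with earlier results of these data known. RNA was hybridised to Affymetrix MG-U74Av2 arrays, a type read from the sample titles, on which a probe set is a group of short oligonucleotides that read 1 transcript or several related ones.

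There were 3 samples, and all belonged to 1 group: wild-type littermates of mice without Rp1, a photoreceptor gene, at postnatal day 7, on a background that mixed 129/SvEv with C57BL/6. Each sample combined the neural retinas of 3 to 4 mice, collected between 1 and 2 pm, so single animals were not resolved. They are called pools 1, 2 and 3 here, and the numbers carry no order. With no second group, the data bear on which of the 8 genes had signal and on how far each varied between the pools. The labels tell nothing more of how the pools relate, so each p-value is about variation among these samples, technical variation included, and the number of arrays limits precision.

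Ganglion cells are the output neurons of the retina and the only retinal cells that send an axon to the brain. Neurofilaments are the intermediate filaments of large axons. They are built from a light subunit (Nefl), a medium subunit (Nefm) and a heavy subunit (Nefh), and set axon calibre. Gap43 and Stmn2 encode growth cone proteins of axons that are still extending, and Thy1, Sncg and Uchl1 are widely used to mark ganglion cells or neurons. Several of the 8 are also made by other retinal neurons: amacrine cells can carry Thy1, Gap43 and Stmn2, and neurofilament subunits and Uchl1 are found in horizontal cells. In whole retina, fewer cells of a type and less RNA per cell cannot be told apart.

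All 8 genes had signal above background in all 3 pools. The background bar was, in each pool, the 90th percentile of 67 measured genes of tissues unrelated to the retina, at a scaled intensity of 254, 273 and 281 in pools 1, 2 and 3. By the probe set chosen for each gene, 8 of 8 genes passed in every pool, against 47.3% of all 8251 measured genes. Counted by probe set it was 10 of 11, against 40.5% of all probe sets. The exception was a probe set of Stmn2. Given how the genes were proposed, the count describes them and is no independent evidence. Intensities of different probe sets are not on a common scale, so no level is set against that of another gene.

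**Figure D1:**
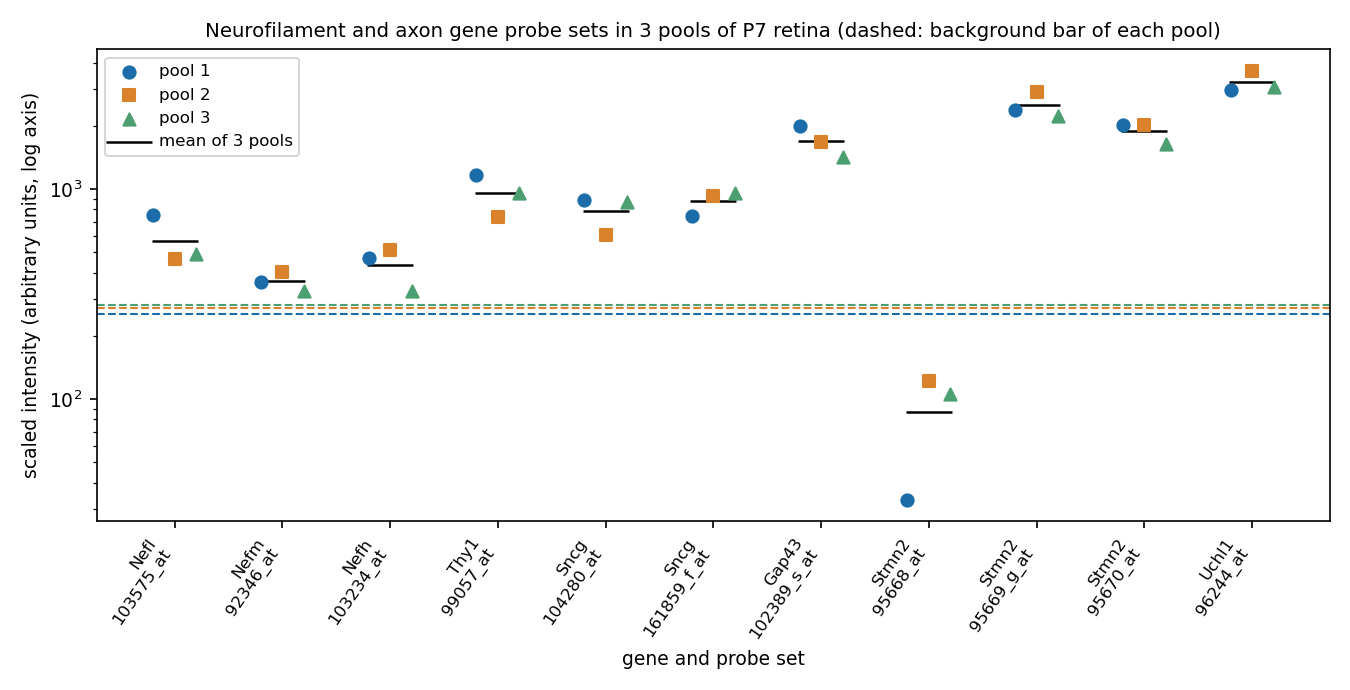
Scaled intensity (log axis, arbitrary units) of the 11 probe sets of the 8 genes in pools 1, 2 and 3, with the mean of the 3 pools as a black line and the background bar of each pool as a dashed line in that pool's colour. All points lie above the bars except the 3 of Stmn2 probe set 95668_at, at 33.2, 122 and 106.

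The 3 neurofilament subunit genes passed the background bar in every pool, and their pools were not in a common order. Nefl, read by probe set 103575_at, had scaled intensities of 750, 463 and 489 in pools 1, 2 and 3. Pool 1 was the high one and pool 2 the low one, as it was in the values as deposited and after quantile normalisation, and pools 2 and 3 lay close together. The mean was 567 ± 159 (SD, n = 3 pools; later means are given in the same way), and the highest pool was 1.62-fold above the lowest. Nefm, read by 92346_at, was at 362, 404 and 327, a mean of 364 ± 38.6 with 1.24-fold between the highest and the lowest pool. Its lowest pool was pool 3 under each scaling, at 1.16 times the bar, while its highest was pool 2, or pool 1 as deposited. Nefh, read by 103234_at, was at 468, 514 and 325, a mean of 436 ± 98.5. Pool 3 was the low one for Nefh also, under each scaling and at 1.16 times the bar, and pools 1 and 2 lay closer together. A gene this near to the bar is called above background by a small margin, although with the bar at the 95th percentile all 3 subunit genes still passed in every pool.

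The 3 subunits co-assemble, and Nefl and Nefm are neighbours with no other protein-coding gene between them in the RefSeq table of GRCm38.p6. The deviations of Nefl and Nefm from their own means over the pools were not the same, but lay no further apart than is common on these arrays. On the log2 scale, Nefl deviated by 0.44, -0.26 and -0.18 in pools 1, 2 and 3. Nefm deviated by -0.004, 0.15 and -0.15. The difference between both deviations was at most 0.44 in any pool. For scale, 904 pairs of probe sets that read the same gene (693 genes) had a median largest difference of 0.39. Nefl and Nefm thus differed about as much as a typical pair of probe sets of 1 gene on these arrays. Nefl against Nefh reached 0.53 and Nefm against Nefh 0.24. These differences were not tested.

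Thy1 encodes a small surface glycoprotein anchored in the membrane of neurons. Its probe set 99057_at was at 1167, 736 and 960 in pools 1, 2 and 3, with a mean of 954 ± 215. Pool 1 was highest and pool 2 lowest, 1.59-fold apart, and the lowest pool was still at 2.70 times the bar. The same pools were highest and lowest as deposited (1.79-fold) and after quantile normalisation (1.74-fold). Thy1 is also an antigen of T cells and of fibroblasts in the mouse. Of 10 measured T cell genes 0 passed the bar in all pools, against 47.3% of all genes. Of the 10, 9 passed it in no pool, among them Cd3d, Cd3e, Cd3g and Cd8a. The summed intensity of the 10 genes was 401, 604 and 877 in pools 1, 2 and 3. Cd4 passed in pool 3 alone (232, 262 and 622). Of 9 fibroblast and mural cell genes, 1 was above background (11.1%), Col1a1 at 448 ± 107, for which 1 of 2 probe sets passed. The other 8 were above it in no pool by the chosen probe set. For Col1a2, however, 1 of 2 probe sets, not the chosen one, passed in all pools. The summed intensity of the 9 genes was 872, 1511 and 987. The part of either kind of cell in the Thy1 values was not tested.

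Sncg, the gamma-synuclein gene, was read by 2 probe sets that put the pools in different orders. The first, 104280_at, was at 887, 602 and 870 in pools 1, 2 and 3, so pool 2 was low, as under the other scalings. The second, 161859_f_at, was at 741, 927 and 952, so pool 1 was low, again under each scaling. The suffix of the second marks a probe set that may be shared by a family of transcripts. The means were 786 ± 160 and 874 ± 115. Both were above background in all pools, at 2.21 times the bar or more. Their deviations differed by up to 0.46 on the log2 scale, and 59.1% of the pairs of probe sets for 1 gene differed by less. No order of the pools can therefore be given for Sncg. Of its paralogs, the beta-synuclein gene Sncb was above background in all pools, at 1494 ± 171.

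Gap43 encodes a growth cone protein that binds calmodulin and actin. It was read by 102389_s_at, of a type whose probes can be shared between similar transcripts, at 1994, 1671 and 1415 in pools 1, 2 and 3. The mean was 1693 ± 290, and pool 3 was at 5.04 times the bar. Pool 1 was highest under each scaling, while the lowest was pool 3, or pool 2 after quantile normalisation. Nrgn and Pcp4, whose products also bind calmodulin, were not above background. Nrgn was at 30.5, 13.8 and 15.3 and Pcp4 at 7.02, 6.64 and 4.03, both below the bar in every pool. They do not stand for every gene named beside Gap43, since Basp1, given below, was above the bar in all pools. Values below the bar do not show that a gene was silent.

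Stmn2 encodes a stathmin of neuronal growth cones that binds tubulin and promotes microtubule disassembly. Of its 3 probe sets, 2 were far above background. 95670_at was at 2009, 2015 and 1632 in pools 1, 2 and 3 (mean 1885 ± 220). 95669_g_at was at 2390, 2898 and 2236 (mean 2508 ± 346). Both were lowest in pool 3 under each scaling, and their deviations differed by at most 0.16 on the log2 scale, less than in 88.3% of the pairs of probe sets for 1 gene. The remaining probe set, 95668_at, was at 33.2, 122 and 106, below the bar in each pool, although the platform annotation ties it to the same sequence entry as 95669_g_at. Its value in pool 1 lay below the floor of 42.2, so its 3.66-fold range is not a measured difference. A gene represented by that probe set alone would have been counted as not above background.

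Uchl1 encodes a ubiquitin hydrolase abundant in neurons. Its probe set 96244_at was at 2961, 3656 and 3066 in pools 1, 2 and 3, a mean of 3228 ± 375. The pools were within 1.23-fold of each other, and each was at 10.9 times the bar or more. Their order was not stable: after quantile normalisation the values were 3236, 3195 and 3220, within 1.01-fold. Its relative Uchl5, a ubiquitin hydrolase that associates with the proteasome, was above the bar in pool 1 only (283, 217 and 122).

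No member probe set was called as varying between the pools more than other probe sets of its brightness. The variance over the pools was compared with that of all probe sets by limma in the 6211 probe sets with the highest mean, among them all member probe sets but 95668_at of Stmn2. With Benjamini-Hochberg adjustment, 0 of 10 were called at a limma adjusted p below 0.05, against 1.34% of all tested probe sets (83). At an unadjusted p below 0.05 it was also 0 of 10, against 6.76%. Nefl had the widest spread, with an SD of 0.38 in log2 units where 0.31 was usual for its level (unadjusted p = 0.222, limma adjusted p = 0.992). Thy1 had an SD of 0.33 (unadjusted p = 0.253) and Nefh of 0.35 (unadjusted p = 0.321). Nefm had the smallest, 0.15, where 0.34 was usual. The median SD of the 10 was 0.22, against 0.26 for all tested probe sets. A range above 1.5-fold was seen for 3 of the 10 (Nefl, Nefh and Thy1), against 36.9% of all tested, and no range exceeded 2-fold. A p that misses the threshold with so few arrays does not show that the pools were alike.

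**Figure D2:**
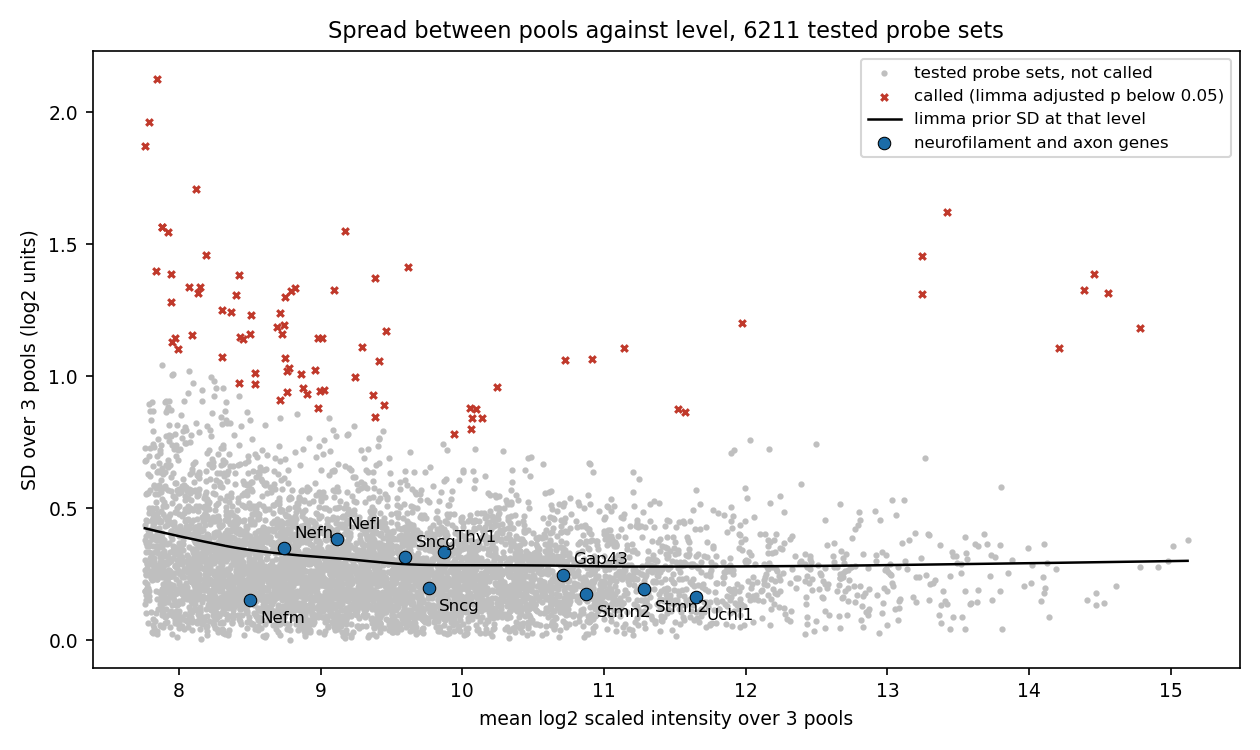
SD over the 3 pools (log2 units) against mean log2 scaled intensity for the 6211 tested probe sets, with called probe sets as red crosses, the limma prior SD as a line and the 10 tested probe sets of the neurofilament and axon genes as named blue points. The named points lie between 0.15 and 0.38, in the mass of the uncalled probe sets.

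Over the 10 probe sets the pools differed a little, and which pool was most often the highest depended on the scaling. The median log2 deviation of the 10 probe sets was 0.11, 0.10 and -0.15 in pools 1, 2 and 3. Over all tested probe sets it was -0.04, 0.11 and -0.07, since the scaling left the brighter probe sets of pool 2 somewhat high. Members exceeded that median in 7 of 10 cases in pool 1, 4 of 10 in pool 2 and 4 of 10 in pool 3. The members' own median was highest in pool 1 under each scaling. As deposited it was 0.17, -0.02 and -0.09 in pools 1, 2 and 3, and after quantile normalisation 0.16, -0.04 and -0.10. Pool 1 was the highest for 4 of the 10, against 27.4% of all tested. It was highest for 7 of 10 in the values as deposited, against 37.5%, and for 6 of 10 after quantile normalisation, against 35.4%. In the scaled values pool 2 was highest for 5 of 10, against 3105 of the 6211 tested, and pool 3 was lowest for 5 of 10, against 42.9%.

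Pool 1 also differed in 2 measures outside the members. The ratio of 3' to 5' signal of the Actb control transcript, a measure of RNA length and labelling, was 1.81, 1.27 and 1.30 in pools 1, 2 and 3. For the Gapdh control transcript the ratios lay closer together, at 0.87, 0.79 and 0.81. The summed intensity of 12 lens genes was 26967, 127518 and 136902. The part of RNA length, labelling or lens signal in the members' values was not tested. Nefl, Thy1 and Gap43 were highest in pool 1 under each scaling, while Sncg probe set 161859_f_at was lowest there.

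**Figure D3:**
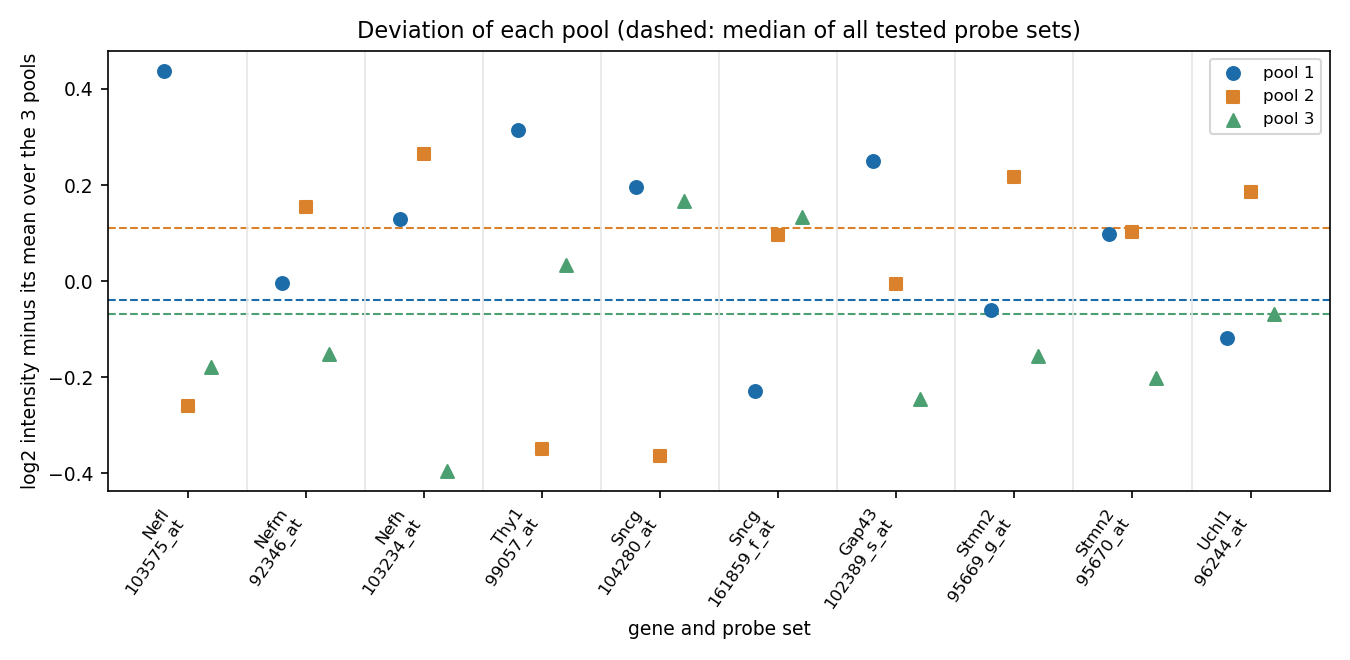
Log2 intensity of each pool minus the mean over the 3 pools for the 10 tested probe sets, with the median of all 6211 tested probe sets as a dashed line in each pool's colour (-0.04, 0.11 and -0.07 in pools 1, 2 and 3). Nefl and Thy1 are high in pool 1 (0.44 and 0.32) and low in pool 2 (-0.26 and -0.35), whereas Nefm, Nefh and Uchl1 are highest in pool 2, which does not hold for Nefm and Nefh as deposited or for Uchl1 after quantile normalisation.

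Other genes of axon growth and the neuronal cytoskeleton were largely above background too. Of 22 measured genes 18 passed in all pools, or 81.8% against 47.3% of all genes. Among the stathmins, Stmn1 was at 10674 ± 479, Stmn3 at 1965 ± 399 and Stmn4 at 1096 ± 217. For Stmn1 and for Stmn3, only 1 of 2 probe sets was above background. Basp1, a growth cone protein often named beside Gap43, was at 16569 ± 3749, from probes that can be shared. Its pools were at 12350, 19520 and 17836, lowest in pool 1, the pool in which Gap43 was highest. The genes not above background in all pools were Map1b, Kif5a, Kif5c and L1cam. Map1b, a microtubule-associated protein gene of growing axons, was below the bar throughout (228, 78.8 and 224), and the kinesin genes Kif5a and Kif5c fell short in pool 1 alone. None of the 21 tested was called for excess spread (limma adjusted p), and 4 had an unadjusted p below 0.05 (Map2, Mapt, Kif5a and Kif1a), against 6.76% of all tested probe sets. Map2, a dendritic microtubule-associated protein gene, was at 464, 1041 and 786 and Kif1a, an axonal transport motor gene, at 479, 828 and 1083, both lowest in pool 1. Kif5a was lowest there too, at 187, 418 and 424, whereas Mapt, the gene of the axonal protein tau, was lowest in pool 3, at 2959, 4932 and 2266. The median log2 deviations of this list were -0.12, 0.22 and -0.04 in pools 1, 2 and 3.

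Intermediate filament genes other than the 3 subunits were above background for 3 of 11 measured genes, or 27.3% against 47.3% of all genes. Ina, whose product alpha-internexin co-assembles with neurofilaments, was at 2271, 2472 and 2609 in pools 1, 2 and 3 (2450 ± 170). Its chosen probe set has a suffix for probes picked with some selection rules dropped, and its other probe set was above background as well. Nes, which encodes the progenitor filament nestin, was at 581 ± 24.6, with 1 of its 2 probe sets above background. The nuclear lamin gene Lmnb1 was at 317 ± 28.1. Prph, the peripherin of peripheral neurons, was at 19.3, 5.66 and 5.76, and the astrocyte filament gene Gfap at 52.2, 82.3 and 46.8, both below the bar in every pool. Vim, the vimentin gene of Müller glia, was below it as well (92.5, 82.0 and 225). Bfsp1, a lens fibre filament gene, was the 1 of 5 tested that was called for excess spread, at 212, 606 and 1006 (limma adjusted p = 0.000622). That call was lost without scaling (limma adjusted p = 0.282), with quantile normalisation (0.197), with dim probe sets kept (0.266) and without pool 1, 2 or 3 (0.983, 0.346 and 0.166). Bfsp1 also belongs to the list of 12 lens genes. Of that list 8 genes were tested in the scaled values and all 8 were called, against 1.34% of all tested probe sets.

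Other ganglion cell genes were above background for 10 of 16 measured genes, or 62.5% against 47.3% of all genes. Isl1, a LIM homeobox gene shared with amacrine and bipolar cells, was at 1038, 1223 and 791 in pools 1, 2 and 3. The RNA-binding protein gene Rbpms, a selective marker of ganglion cells, was at 675, 793 and 746 (738 ± 59.4). Ebf3, a transcription factor gene, was at 1054 ± 185, and Chrna6, a nicotinic receptor subunit gene, at 346 ± 54.3. The transcription factor gene Atoh7, which acts when ganglion cells are born, was below the bar in every pool, at 26.8, 30.7 and 20.2, as was Eomes. Of the 25 genes written into this list, 9 were not analysed here, among them Pou4f1, Pou4f2 and Slc17a6, so few markers selective for ganglion cells were measured. No gene of the list was called for excess spread in 11 tested, and 1, Vsnl1, had an unadjusted p below 0.05. The median log2 deviations of the list were -0.13, 0.23 and 0.06, against -0.04, 0.11 and -0.07 over all tested probe sets, so pool 1 was not its high pool in the scaled values.

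Markers of other cells that could carry the members varied. Of 13 measured genes of amacrine and horizontal cells 8 passed the bar in all pools, or 61.5% against 47.3% of all genes. Among them were the inhibitory transmitter genes Gad1 at 2129 ± 200, Slc6a9 at 2250 ± 217 and Slc32a1 at 1613 ± 421, and Pax6 at 2282 ± 310. Gad2 (54.0, 38.9 and 58.4), Calb1 (225, 261 and 140) and Slc18a3 (9.24, 28.2 and 48.2) passed in no pool. Lhx1 passed in pool 3 alone (142, 235 and 384) and Th in pool 1 alone (289, 165 and 55.5). The summed intensity of the list was 11756, 12007 and 10859 in pools 1, 2 and 3. Of 11 astrocyte and oligodendrocyte genes 3 passed (27.3%), Mbp at 426 ± 43.5, Sox10 at 367 ± 111 and Pdgfra at 943 ± 225. Only 1 of 2 probe sets passed for Mbp and for Sox10, and 1 of 3 for Pdgfra. Mag, Mog, Mobp, Cnp, Aqp4, S100b and Gfap were above the bar in no pool. The sum of that list was 1697, 2224 and 2265. For peripheral nerve 3 genes were measured and 2 passed (66.7%), Pmp22 at 471 ± 21.3 and Ncam1 at 7478 ± 480, neither of which is particular to Schwann cells. The remaining gene, Egr2, was above the bar in no pool (67.4, 26.6 and 139). By probe set, 1 of 2 passed for Pmp22 and 2 of 3 for Ncam1. The part of any of these cells in the members' values was not tested.

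**Figure D4:**
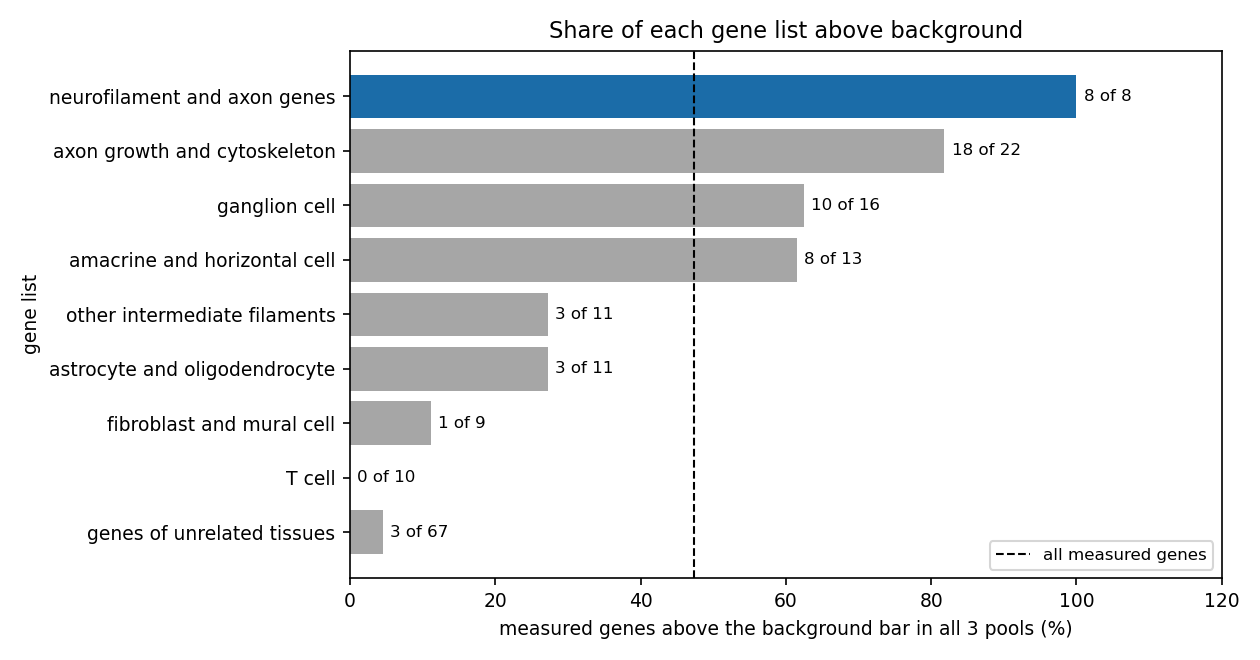
Percentage of the measured genes of each list drawn that were above the background bar in all 3 pools, by 1 probe set a gene. The counts stand beside the bars, and the 47.3% of all measured genes is a dashed line. The lists of lens, of peripheral nerve and of relatives of Sncg and Uchl1 are not drawn. The 8 neurofilament and axon genes stand at 8 of 8, the axon growth and cytoskeleton list at 18 of 22, the T cell list at 0 of 10 and the genes of unrelated tissues, which set the bar, at 3 of 67.

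Of the genes of unrelated tissues, the keratin genes Krt10 and Krt1 and the pituitary hormone gene Lhb were above the bar in all pools, at 605 ± 294, 421 ± 229 and 510 ± 169. For Krt10, 1 of 2 probe sets passed. Cela1, an elastase gene of that list, was called for excess spread (73.0, 427 and 695 in pools 1, 2 and 3, limma adjusted p = 3.4e-06), a call lost without scaling (0.171), with quantile normalisation (0.117), with dim probe sets kept (0.266) and without pool 1 (0.983) or pool 2 (0.315). Without pool 3 it was not tested.

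The neurofilament genes had no common order of the pools, so the mean of their deviations is not a pattern they shared. Likeness to that mean therefore cannot point to relatives. The mean deviation of Nefl, Nefm and Nefh was 0.19, 0.05 and -0.24 in pools 1, 2 and 3. The nearest of 4690 other tested genes by Euclidean distance over the 3 pools were Slc50a1, Kmt5a and Anapc13, at 0.0094, 0.011 and 0.012. Within a distance of 0.1 there were 160 genes, or 3.41%, so likeness over so few arrays says little of any gene.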

How the data were processed

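The authors deposited 1 intensity value per probe set and array on a linear scale. The software and background correction behind these deposited intensities are not stated in the labels. The values had a trimmed mean (without the lowest and highest 2%) of 500.2, 500.3 and 500.2 in pools 1, 2 and 3. Of 12488 probe sets, 66 controls were left out. Names came from the platform annotation, updated by gene ID through RefSeq (GRCm38.p6, names and gene order only): 10833 probe sets had 1 gene (10817 matched by ID), 396 several and 1193 none.

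Each array was scaled to the mean of the array medians (factors 0.962, 1.09 and 0.959). For tests, values were floored at the 20th percentile (42.2) and put on the log2 scale. A gene was represented by a probe set without letter suffix before any other, then by the brightest. Excess spread across arrays, with 2 residual degrees of freedom, was tested in the brightest 50% of probe sets. This used limma 3.58.1 (squeezeVar, robust, with mean level as covariate) in R 4.3.3, with Benjamini-Hochberg adjustment over all tested. The procedure was also run on simulated data, in which the changes were larger than the range of any tested member probe set. Alternatives changed the scaling, floor, pseudocount (32), filter, prior, bar, probe set choice and pools. All probe sets of the 8 genes are named; of each other list, the first 4 genes above background in written order and those called, and further genes named beside them were chosen after their values were seen. The lens list is given by its sum and its number of calls only. The members and lists were chosen with earlier results of these data known.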

Additional observations from a re-analysis of the deposited data

How the results depend on the processing

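The count of member probe sets above background was 10, and of member genes 8, under every alternative run (no scaling, quantile normalisation, the other floor, the pseudocount, bars at the 75th and 95th percentile and each pool left out, and for genes the mean of all their probe sets). No member probe set was called for excess spread under any alternative. The lowest unadjusted p of a member was between 0.091 and 0.235, and the lowest limma adjusted p between 0.266 and 0.992. The number of all probe sets called, 83, was 6 without scaling, 6 with quantile normalisation, 0 by limma where dim probe sets were kept (141 at an unadjusted p below 0.05), 27 in the brightest 25% and 38 without the robust option, and between 9 and 30 on leaving out 1 pool; the cause was not tested. The median deviation of the members in pool 2 was 0.10, against -0.02 without scaling and -0.04 after quantile normalisation, so its sign changed. Over all tested probe sets the median in pool 2 moved as well, from 0.11 to -0.01 without scaling and 0.01 after quantile normalisation. In pool 1 the members' median was 0.11, and -0.03 without pool 3. No paired analysis was possible because all samples belong to 1 group. The number of arrays and the nearness of the neurofilament genes to the background bar limit what can be said.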
